A study of Mus musculus with 30 samples.

Results

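Livers of formerly obese mice were compared with livers of mice that had never been obese, both eating the same low-fat control diet when they were killed. The comparison holds 12 of the 30 livers of the series, 6 titled formerly obese and 6 titled lean, and covers all 22180 genes that a probe set of the array names alone. All 12 mice were male wild-type C57BL6/J mice killed at 35 weeks of age. Formerly obese mice had eaten a high-fat, high-sucrose diet (HFD, 58% of energy from fat) for 20 weeks and then control diet (10.5% of energy from fat) *ad libitum* for 7 weeks. Lean mice had eaten control diet for all 27 weeks. The comparison asks what a past obesity leaves in the liver once the diet no longer differs. A further 12 livers, 6 formerly obese and 6 lean, came from other mice killed after 48 h of HFD and served as an independent look at the same history. The last 6 livers of the series, from obese mice, entered only an alternative fit of all 30.

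The liver is mostly made of hepatocytes, but its sinusoids are lined by a specialised endothelium and patrolled by Kupffer cells, the resident macrophages, which clear particles, dying cells and bacterial products from portal blood. Stellate cells between endothelium and hepatocytes store vitamin A and make collagen in fibrosis. Interferons switch on antiviral genes through STAT and IRF factors, and obesity is known to add recruited monocytes and inflammatory signals to the liver.

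Values are RMA signals of whole liver RNA, given here on the linear scale unless a difference is named as log2. A gene passed the criteria when its unadjusted limma *P* was under 0.01, the group averages differed by more than 1.2 times and the higher average exceeded 8. These criteria were passed by 163 of 22180 genes (0.735%), 106 higher in formerly obese livers (0.478%, or 0.728% of the genes past the average) and 57 lower (0.257%, or 0.391%). Counted over all probe sets, 374 passed (0.905%). Their ratios lay between 0.585 and 1.86. With each array centred on its median, 176 genes passed, 137 higher and 39 lower, so that 77.8% instead of 65.0% were higher. No gene passed a Benjamini-Hochberg FDR of 10% in limma, over all probe sets or over genes, where the smallest adjusted *P* was 0.198 and 0.347. At an unadjusted *P* under 0.05 there were 1155 genes, or 5.21% of those tested, with 580 higher (2.61%) and 575 lower (2.59%). Each gene said below to have passed is therefore a candidate on unadjusted criteria only, and genes that did not pass are named as such. The median log2 difference over the 14564 genes past the average was 0.02, and 55.1% of them lay above 0. The 2 groups did not overlap for 76 genes (0.343%), 37 of them among the 163. With each mouse left out in turn, 58 of the 163 passed every time. At 0.735%, a gene list of the sizes used below would often hold no gene that passed. The absence of such a gene from a list therefore says little.

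**Figure D1:**
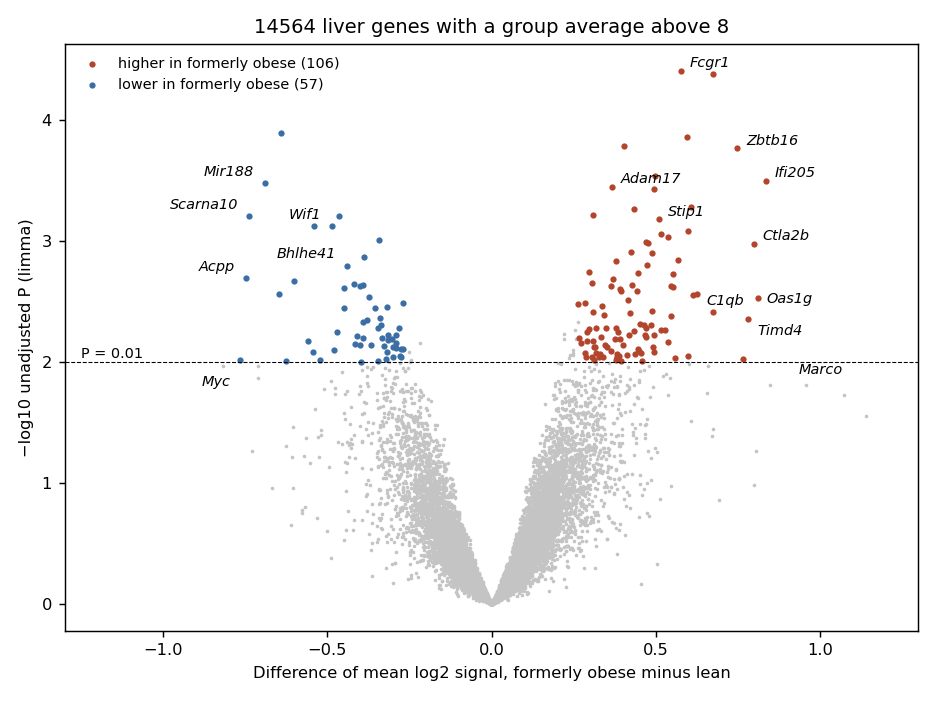
Each dot is a gene with a group average above 8, by its difference of mean log2 signal (formerly obese minus lean, horizontal) and −log10 of its unadjusted limma *P* (vertical). The 106 coloured dots on the right and 57 on the left passed the criteria, and *Fcgr1* had the smallest *P* among them, while *Marco* and *Myc* lay below the threshold line with larger differences than most.

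Macrophage genes were higher in formerly obese livers. All 24 measured members of a list of genes of macrophages in general had a higher mean (55.1% of all genes past the average did). Of the 24, 12 had *P* under 0.05 (2.61% of all genes were higher at that level). The criteria were passed by 7 (*Fcgr1*, *Msr1*, *Igsf6*, *C1qb*, *Csf1r*, *Hmox1* and *Cd68*), against the 0.478% of all genes. This list, like those below, was chosen with earlier results of these data known, so its counts are a description and not a test. The median log2 difference of the 24 was 0.37, against 0.02 over all genes past the average. It ranged from 0.30 (without lean mouse 3) to 0.45 over the fits that left a mouse out, with 4 to 10 genes past the criteria. In the fit of all 30 livers *Csf1r*, *Cd68* and *Hmox1* did not pass (limma *P* of 0.0171, 0.0150 and 0.0543), while the other 4 did. The summed signal of the 24 genes was 2085 to 3681 (median 2785) in formerly obese and 1656 to 2414 (median 2124) in lean livers, with no member below 5.75 in any liver. Since whole liver was measured, more macrophages and more of these RNAs per macrophage cannot be told apart.

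*Fcgr1*, the high-affinity receptor for IgG, had the smallest *P* of the 163 genes. Its signal was 23.6 to 30.1 (median 28) in formerly obese and 15.9 to 20.4 (median 18.6) in lean livers. Every formerly obese mouse lay above every lean mouse. The ratio was 1.49 (log2 difference 0.58, SE 0.10, limma *P*=3.90e-05, exact permutation *P*=0.00216). With 924 arrangements of the mice, 0.00216 is the smallest exact *P* that can be had. Without any 1 mouse the limma *P* of *Fcgr1* was at most 0.000142. *Igsf6*, an immunoglobulin superfamily receptor of myeloid cells, was 63.3 to 103 (median 77) in formerly obese and 37.5 to 60.3 (median 57.3) in lean mice. The groups did not overlap here either (log2 difference 0.55, SE 0.14, limma *P*=0.00188, exact permutation *P*=0.00216).

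*C1qb*, a chain of the complement starter C1q that macrophages make, ranged from 92.2 to 186 (median 131) in formerly obese and from 64.1 to 111 (median 85.8) in lean livers. Only formerly obese mouse 3 lay within the range of lean mice (log2 difference 0.63, SE 0.17, limma *P*=0.00273, exact permutation *P*=0.00649). The other chains differed less, and neither *C1qc* (log2 difference 0.33, limma *P*=0.0403, exact permutation *P*=0.0584) nor *C1qa* (log2 difference 0.26, limma *P*=0.0696, exact permutation *P*=0.0823) passed the criteria. *Csf1r*, the receptor for the macrophage growth factor CSF1, was 66.1 to 108 (median 79) against 45 to 67.3 (median 61). Formerly obese mice 3 and 6 lay just below the highest lean mouse (log2 difference 0.45, SE 0.13, limma *P*=0.00484, exact permutation *P*=0.00649), and *Csf1r* no longer passed without formerly obese mouse 1 or 2 or lean mouse 1 or 3, with *P* up to 0.0118. *Cd68*, a lysosomal glycoprotein of macrophages, had a signal of 105 to 199.9 (median 159.8) in formerly obese and 83.5 to 133 (median 107) in lean livers. It missed the criteria in 8 of the 12 fits that left out a mouse, with *P* up to 0.0178 without formerly obese mouse 5. *Msr1*, a scavenger receptor for modified lipoproteins, was 75.8 to 123 (median 88.7) against 51.2 to 77 (median 63.1), with 1 mouse of each group in the overlap (log2 difference 0.57, SE 0.14, limma *P*=0.00144, exact permutation *P*=0.00433). The haem-degrading enzyme *Hmox1* was 157 to 258 (median 181) against 103 to 158 (median 147) and missed the criteria in 5 of 12 fits without a mouse (*P* up to 0.0156, without formerly obese mouse 5). *Adgre1*, which encodes the macrophage antigen F4/80, differed by 0.60 on the log2 scale and came close (limma *P*=0.0103, exact permutation *P*=0.00649). It passed in the fit of all 30 livers (limma *P* of 0.0065).

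Resident Kupffer cells were read from 15 genes, of which 14 were past the average. Of these 14, 12 had a higher mean in formerly obese livers (55.1% of all genes past the average did), 6 of the 15 had *P* under 0.05 (2.61% of all genes were higher at that level), and the median log2 difference was 0.29. *Timd4*, a receptor for phosphatidylserine on dying cells, *Vsig4*, a receptor for complement fragments, and *Cd163*, the receptor for haptoglobin-bound haemoglobin, passed the criteria, as did 0.478% of all genes. In the fit of all 30 livers *Timd4* passed, and *Vsig4* and *Cd163* did not (limma *P* of 0.0210 and 0.0788). The count of members that passed was 0 to 4 when a mouse was left out, and 0 without lean mouse 3. *Timd4* was 50.8 to 142 (median 71.3) in formerly obese and 35.5 to 57.8 (median 41.1) in lean livers, with formerly obese mouse 1 highest and mice 3 and 6 within the lean range. *Vsig4* was 211 to 408 (median 344) against 163 to 296 (median 222), and only formerly obese mouse 3 lay within the lean range. *Cd163* was 36.9 to 60.7 (median 52.2) against 33.9 to 40.5 (median 37.8). Their log2 differences were 0.78 (SE 0.23), 0.56 (SE 0.18) and 0.42 (SE 0.13). With a mouse left out, *Timd4* missed the criteria in 4 of 12 fits (*P* up to 0.0111, without lean mouse 4), *Vsig4* in 9 (*P* up to 0.0233, without lean mouse 3) and *Cd163* in 6 (*P* up to 0.0156, without formerly obese mouse 6). *Marco*, a scavenger receptor for bacteria, had the largest ratio of the list, 2.14, but did not pass (limma *P*=0.0154, exact permutation *P*=0.0173). It did pass in the fit of all 30 livers (limma *P* of 0.007). Its signal was 122 in formerly obese mouse 1 and 29.3 to 54.3 in the other 5, against 14.1 to 33.3 in lean mice. *Clec4f*, a lectin of mouse Kupffer cells, was 80.6 to 131 (median 124) in formerly obese and 75.8 to 141 (median 94.3) in lean livers, and its groups overlapped throughout (log2 difference 0.25, limma *P*=0.126, exact permutation *P*=0.16).

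Other blood cells showed smaller differences. Genes of monocyte-derived and lipid-associated macrophages had a median log2 difference of 0.10 over 14 genes past the average, which was 0.04 without formerly obese mouse 5 and at most 0.19 without any other, and none of the 18 measured passed. *Trem2*, the lipid receptor that marks lipid-associated macrophages, was 12.6 to 19.1 (median 14.7) in formerly obese and 11.2 to 15.5 (median 13.5) in lean livers (log2 difference 0.17, limma *P*=0.177, exact permutation *P*=0.19). Dendritic, B and neutrophil lists had medians of 0.07, 0.06 and -0.03, with no gene past the criteria. Among 25 measured T and NK cell genes, with a median of 0.01, *Il2rb* passed (0.478% of all genes did as higher). This shared subunit of the IL-2 and IL-15 receptors was 9.29 to 11.9 (median 9.98) in formerly obese and 6.22 to 9.31 (median 7.92) in lean livers, and only formerly obese mouse 2 overlapped with lean mice (log2 difference 0.45, SE 0.11, limma *P*=0.00183, exact permutation *P*=0.00433). The MHC class II list of 13 measured genes had a median of 0.14, which was 0.03 without formerly obese mouse 2 and at most 0.22 without any other. In it 1 gene passed (against the same 0.478% of all genes), *Ifi30*, a lysosomal thiol reductase that prepares antigens. It was 58.7 to 90.6 (median 72.3) against 44.2 to 59.8 (median 53.9), with a single mouse of each group in the overlap (log2 difference 0.47, limma *P*=0.00101, exact permutation *P*=0.00433).

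**Figure D2:**
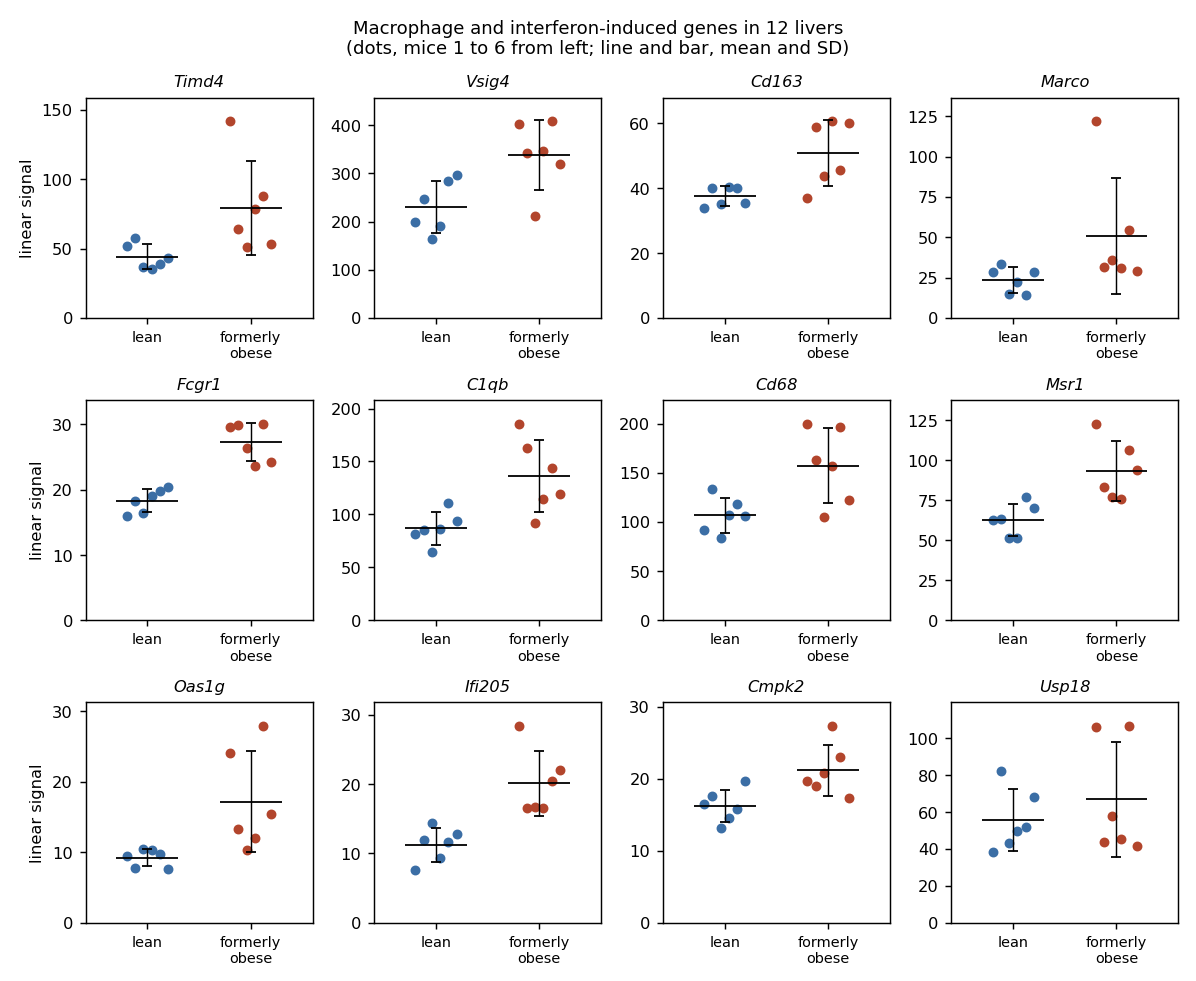
Linear signal (vertical, from 0) of 12 genes in the 6 lean and 6 formerly obese livers, with a dot for each mouse in the order of its number and the mean and SD of each group. *Fcgr1* and *Ifi205* separate the groups completely, *Timd4* and *Marco* are led by formerly obese mouse 1, and *Oas1g* and *Usp18* are highest in formerly obese mice 1 and 5.

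Interferon-induced genes leaned the same way, with few past the criteria. Of 39 list members past the average, 36 had a higher mean in formerly obese livers (55.1% of all genes past the average did), with a median log2 difference of 0.22. Only 5 of the 43 measured had *P* under 0.05 (2.61% of all genes were higher at that level). The 3 that passed were *Ifi205*, *Oas1g* and *Cmpk2*, when 0.478% of all genes passed as higher. The mean log2 deviation of the list from the lean average was 0.46 in formerly obese mouse 1 and 0.45 in mouse 5, and 0.02 to 0.15 in the other 4. Lean mice lay between -0.07 and 0.15, so that mice 1 and 5 stood clear of them and the other 4 did not. Without mouse 5 the median log2 difference over the list was 0.12, and the count of members that passed was 2 to 7 over the fits without a mouse.

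*Ifi205*, a member of the DNA-sensing p200 family, was 16.5 to 28.4 (median 18.5) in formerly obese and 7.61 to 14.4 (median 11.8) in lean livers. All 6 formerly obese mice lay above all lean mice (log2 difference 0.84, SE 0.17, limma *P*=0.000317, exact permutation *P*=0.00216). Its relative *Mndal*, named after its values were seen, was 71.6 to 115 (median 80.9) against 48.2 to 82.9 (median 59.9) and also passed, but not without formerly obese mouse 4 or 6 or lean mouse 3 or 4. *Oas1g*, of the oligoadenylate synthetases that activate an antiviral RNase, was 10.3 to 27.9 (median 14.3) against 7.64 to 10.5 (median 9.59). Mice 1 and 5 reached 24.1 and 27.9, and mouse 3 lay within the lean range (log2 difference 0.81, SE 0.22, limma *P*=0.00294, exact permutation *P*=0.00433). In the fit of all 30 livers neither *Oas1g*, *Cmpk2* nor *Mndal* passed (limma *P* of 0.0759, 0.107 and 0.0130), and *Ifi205* did. *Ifi205* and *Oas1g* belong to families of close relatives, whose RNAs the probes may not fully separate. *Cmpk2*, a mitochondrial nucleotide kinase, was 17.3 to 27.3 (median 20.2) against 13.2 to 19.6 (median 16.2), and missed the criteria in 8 of 12 fits without a mouse (*P* up to 0.0217, without lean mouse 3). Widely used members of the list did not pass. *Usp18*, which removes ISG15 from proteins, reached 106 and 107 in formerly obese mice 1 and 5 but 41.3 to 58.0 in the other 4, within the 38.4 to 82.4 of lean mice. *Isg15* was 19.8 to 38 (median 27.2) against 22.3 to 29.5 (median 26.1), and *Irf7* differed by 0.33 on the log2 scale (limma *P*=0.081, exact permutation *P*=0.113).

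The promoters of the 3 interferon genes that passed and of *Fcgr1*, the gene with the smallest *P* of all that passed, are shown. Each is 300 bases that lie mostly before the RefSeq start (GRCm38.p6). Capitals mark the interferon-stimulated response element, searched as GAAANNGAAA on both strands, or the core of a PU.1 site, the factor that directs macrophage genes, searched as GAGGAAG on both strands. The promoter of *Oas1g* holds 2 overlapping response elements, that of *Ifi205* a pair in opposite orientation, that of *Cmpk2* no match in this window, and that of *Fcgr1* a PU.1 match on the opposite strand. The promoters of *C1qb*, *Cd68*, *Igsf6*, *Timd4*, *Vsig4* and *Cd163*, macrophage and Kupffer genes that also passed, hold no PU.1 match in this window.
*Oas1g*, chr5:120887564-120887863, minus strand: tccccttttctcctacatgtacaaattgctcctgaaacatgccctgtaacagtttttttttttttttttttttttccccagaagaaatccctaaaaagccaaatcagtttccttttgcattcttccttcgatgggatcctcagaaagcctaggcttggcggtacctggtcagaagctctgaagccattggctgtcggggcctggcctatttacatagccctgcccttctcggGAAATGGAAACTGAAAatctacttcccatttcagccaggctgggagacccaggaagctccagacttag
*Ifi205*, chr1:174031706-174032005, minus strand: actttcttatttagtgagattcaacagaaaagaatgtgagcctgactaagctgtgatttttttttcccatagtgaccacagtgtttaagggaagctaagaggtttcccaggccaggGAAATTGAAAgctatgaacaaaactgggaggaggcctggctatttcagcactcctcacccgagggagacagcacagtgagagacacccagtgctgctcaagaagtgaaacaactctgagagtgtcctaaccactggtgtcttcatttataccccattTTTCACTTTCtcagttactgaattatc
*Cmpk2*, chr12:26468965-26469264, plus strand: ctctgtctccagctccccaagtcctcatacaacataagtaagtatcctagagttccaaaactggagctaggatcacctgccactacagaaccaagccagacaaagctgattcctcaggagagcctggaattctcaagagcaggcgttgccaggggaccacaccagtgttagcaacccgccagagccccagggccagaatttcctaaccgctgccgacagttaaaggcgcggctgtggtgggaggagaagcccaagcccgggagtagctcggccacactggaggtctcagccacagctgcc
*Fcgr1*, chr3:96293920-96294219, minus strand: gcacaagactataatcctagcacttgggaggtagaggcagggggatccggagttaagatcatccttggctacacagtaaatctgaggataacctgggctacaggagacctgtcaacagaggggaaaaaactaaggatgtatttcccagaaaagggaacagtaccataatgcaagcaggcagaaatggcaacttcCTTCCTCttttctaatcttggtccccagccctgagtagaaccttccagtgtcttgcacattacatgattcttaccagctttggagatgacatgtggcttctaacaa
Of the 43 measured genes of the interferon list 30 had a promoter sequence, and 20 of these (66.7%) held the response element, against 3.99% of all 27025 promoters. Among the 86 genes with a promoter that were higher in formerly obese livers, 4 held it (4.65%). The PU.1 core was found in 6 of 16 promoters of the macrophage list and 5 of 14 of the Kupffer list (37.5% and 35.7%), against 15.4% of all promoters, and in 12 of the 86 (14.0%). A match describes letters in this window only.

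Signalling to NF-κB, the factor that carries TNF and Toll-like receptor signals to the nucleus, was represented by 26 measured genes. Of the 22 past the average, 19 had a higher mean (55.1% of all genes past the average did), and the median log2 difference was 0.13. *Adam17*, *Rel* and *Plaur* passed, also without any 1 mouse, when 0.478% of all genes passed as higher. *Adam17*, the protease that frees TNF from the cell surface, was 52.9 to 67.9 (median 56) in formerly obese and 42.6 to 47.9 (median 44.7) in lean livers, with no overlap. *Rel*, an NF-κB subunit of immune cells, was 45.9 to 61.1 (median 55.5) against 35 to 50.2 (median 41.2), and *Plaur*, the urokinase receptor, 11.4 to 18.1 (median 14.5) against 9.71 to 13.1 (median 10.7). A single formerly obese mouse overlapped with lean mice in each. Their log2 differences were 0.37 (SE 0.08), 0.42 (SE 0.10) and 0.42 (SE 0.11). *Bcl10*, an adaptor upstream of NF-κB that was named after its values were seen, was 32 to 38.9 (median 33.6) against 20.6 to 33.1 (median 23.9) (log2 difference 0.44, limma *P*=0.00259, exact permutation *P*=0.00649).

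The cytokines themselves did not pass. *Il1b* was 10 to 25.7 (median 16) in formerly obese and 8.32 to 20.2 (median 12.5) in lean livers (limma *P*=0.126, exact permutation *P*=0.169), *Tnf* 8.63 to 12.6 (median 11.2) against 7.6 to 17.3 (median 9.3), and *Il6* stayed below the average of 8 in both groups. *Ccl5*, a chemokine for T cells and monocytes, was 74.9 to 142 (median 108) against 60.3 to 88.7 (median 73.5) and lay just outside the criteria (log2 difference 0.46, limma *P*=0.0115, exact permutation *P*=0.0195). Toll-like receptors and the genes of endotoxin recognition (22 measured), chemokines and their receptors (31 measured) and acute phase proteins (22 measured) had no gene past the criteria, with median log2 differences of 0.14, 0.07 and 0.00. *Tlr4*, the endotoxin receptor, was 10.7 to 14.9 (median 13.72) in formerly obese and 10.8 to 23 (median 16.5) in lean livers (limma *P*=0.231, exact permutation *P*=0.275).

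**Figure D3:**
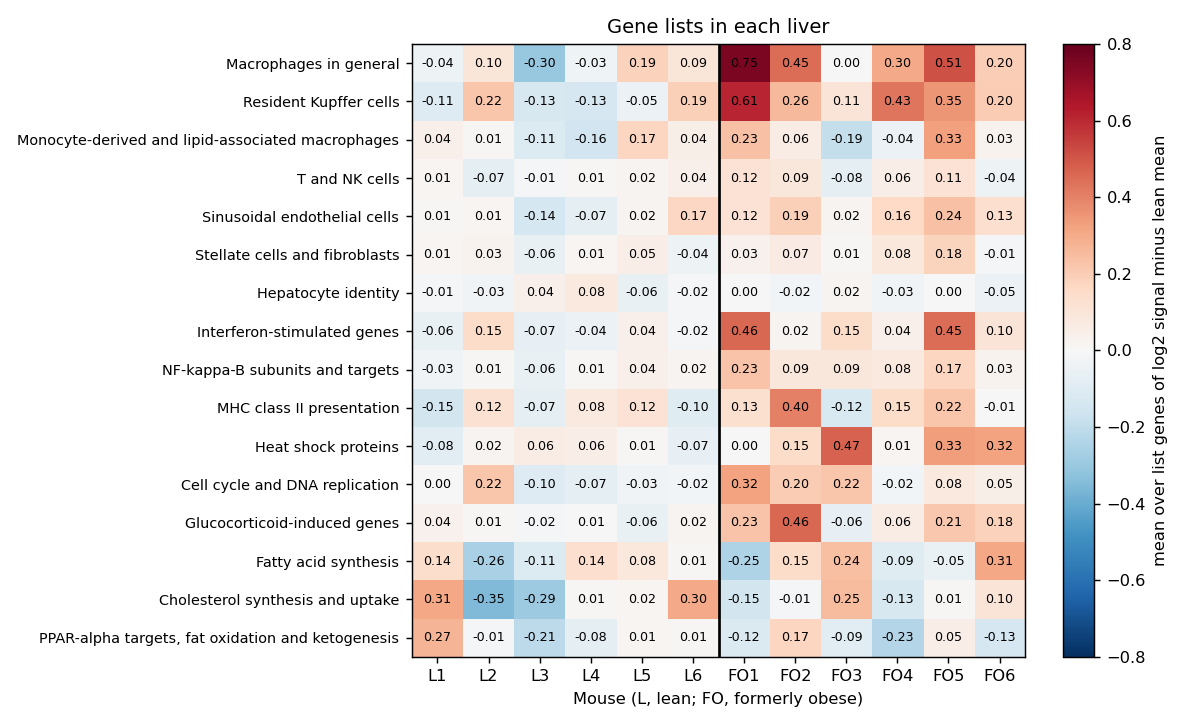
Mean over the genes of a list of the log2 signal minus the lean mean, for 16 lists (rows) in the 6 lean (L) and 6 formerly obese (FO) livers (columns). Formerly obese mouse 1 is highest for macrophages (0.75) and mouse 3 lowest of its group (0.00). Mice 1 and 5 stand out for interferon genes and mice 3, 5 and 6 for heat shock proteins, and the hepatocyte row lies between -0.06 and 0.08.

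Among the cells of the liver wall, 20 genes of sinusoidal endothelium had a median log2 difference of 0.15. Of these, 16 had a higher mean (55.1% of all genes past the average did), and *Cdh5* and *Gpr182* passed (0.478% of all genes did as higher). *Cdh5*, the cadherin of endothelial junctions, was 148 to 209 (median 188) in formerly obese and 113 to 166 (median 134) in lean livers, where formerly obese mouse 3 and lean mouse 6 overlapped (log2 difference 0.48, SE 0.11, limma *P*=0.00104, exact permutation *P*=0.00433). *Gpr182*, an endothelial chemokine scavenger that did not pass in the fit of all 30 livers (limma *P* of 0.0122), was 136 to 199 (median 157) against 112 to 139 (median 126) and missed the criteria in 8 of 12 fits without a mouse (*P* up to 0.0204, without lean mouse 2). The scavenger receptor *Stab2* (175 against 169 in the median mouse) and *Pecam1* (55.2 against 57.3), which mark the same cells, did not pass. The macrophage list was higher in the same livers, as given above, and its part in the endothelial values was not tested.

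Stellate cells and fibroblasts (26 measured genes) and collagen chains (18 measured) had median log2 differences of 0.05 and 0.04 and no gene past the criteria. *Col1a1*, the main chain of fibrotic collagen, was 15.7 to 22.6 (median 20.5) in formerly obese and 18.6 to 22.7 (median 19.8) in lean livers, and *Acta2*, the actin of activated stellate cells, 64.3 to 84.3 (median 73.3) against 51.4 to 81.2 (median 69.9). *Tgfb1*, which drives collagen synthesis, came nearest, at 30.4 to 42.1 (median 36.6) against 22.8 to 34.3 (median 29.2) (log2 difference 0.29, limma *P*=0.0219, exact permutation *P*=0.0216). Bile duct genes had a single gene past the criteria, the transcription factor *Sox9*, when 0.478% of all genes passed as higher. *Sox9* was 18.7 to 25.9 (median 21.6) against 11.8 to 21 (median 14.9). It missed the criteria in 8 of 12 fits without a mouse (*P* up to 0.0203, without formerly obese mouse 5) and in the fit of all 30 livers (limma *P* of 0.0276). The duct keratin *Krt7* was outside the criteria, with a log2 difference of -0.31 (limma *P*=0.0117, exact permutation *P*=0.0195).

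The hepatocyte list checked the tissue and differed little. Its 13 measured genes had signals of 20 or more in every liver, with *Alb* at averages of 6170 in formerly obese and 6264 in lean livers. None had *P* under 0.05 (median log2 difference -0.02), but 11 of the 13 had a lower mean in formerly obese livers. Over all genes past the average, 55.1% had a higher mean. Genes of exocrine pancreas, an organ that can be cut with the liver, were near background and lower in formerly obese livers, with 3 of 12 at *P* under 0.05 (2.59% of all genes were lower at that level) and a summed signal of 90.5 to 104 against 102 to 111. The part of these in the results was not tested.

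Metabolic lists held almost no gene past the criteria, when only 0.735% of all genes passed in either direction. None passed among 21 genes of fatty acid synthesis, 19 of cholesterol synthesis and uptake, 28 of lipid droplets and triglyceride synthesis, 33 of PPARα targets and fat oxidation, 23 of glucose metabolism, 24 of apolipoproteins, 32 of the urea cycle and amino acid catabolism, 48 cytochromes P450 and 42 of oxidative phosphorylation. Their median log2 differences lay between -0.03 (lipid droplets) and 0.06 (fatty acid synthesis). *Lpin1*, a phosphatidate phosphatase, varied widely within the groups, from 281 to 879.8 (median 455) in formerly obese and from 186 to 461 (median 321) in lean livers, and *Angptl8*, an insulin-induced inhibitor of lipoprotein lipase, from 125 to 658 and from 107 to 309 (limma *P*=0.0538, exact permutation *P*=0.0844). *Elovl3*, a fatty acid elongase of male and clock-driven liver, did not pass, at 85.4 to 226 (median 135) against 179 to 261 (median 225) (log2 difference -0.71, limma *P*=0.0108, exact permutation *P*=0.0281). In the bile acid list of 27 measured genes *Hsd3b7* passed (0.257% of all genes did as lower), an early enzyme of bile acid synthesis. It was 111 to 134 (median 124) in formerly obese and 132 to 180.4 (median 149) in lean livers (log2 difference -0.29, SE 0.09, limma *P*=0.007, exact permutation *P*=0.00649), and missed the criteria in 8 of 12 fits without a mouse (*P* up to 0.0177, without formerly obese mouse 1), with median-centred arrays (limma *P* of 0.0129) and in the fit of all 30 livers (limma *P* of 0.0181).

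**Figure D4:**
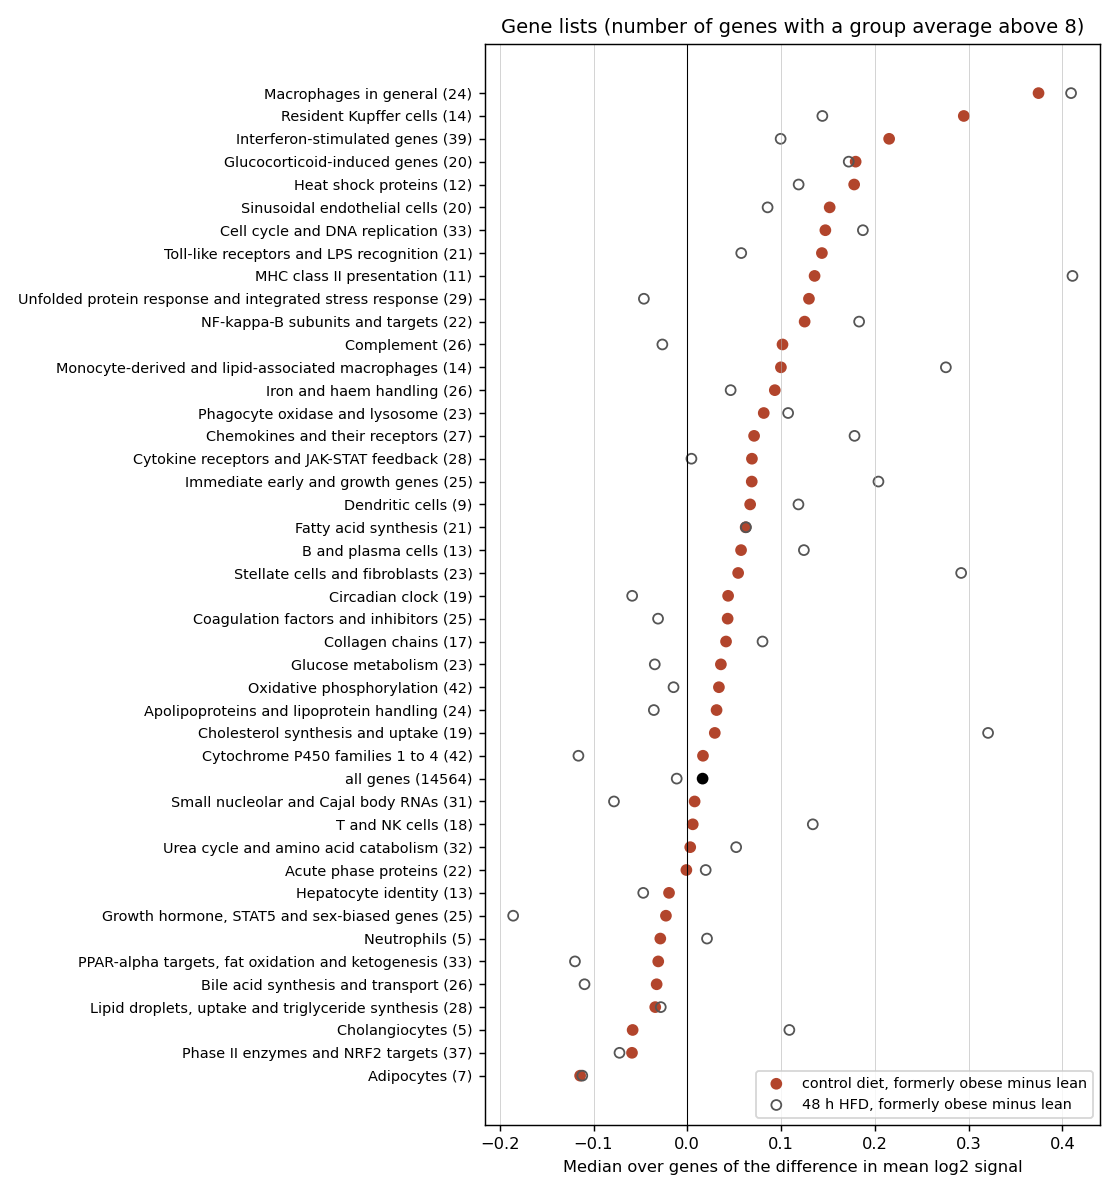
Median over the genes of each list of the difference in mean log2 signal, formerly obese minus lean, on control diet (filled) and after 48 h of HFD in other mice (open), with the number of genes past the average in parentheses and all genes in black. The macrophage list is at the top in control diet (0.37) and high after HFD (0.41), and most metabolic lists lie near the value of all genes in control diet.

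Heat shock proteins, which hold other proteins in shape, all had a higher mean in formerly obese livers (12 of 12 measured, against 55.1% of all genes past the average), with a median log2 difference of 0.18, and *Cryab* and *Hsph1* passed, when 0.478% of all genes did as higher. *Cryab*, a small chaperone, was 60.2 to 73.1 (median 62.4) in formerly obese and 36.2 to 55.2 (median 45.1) in lean livers, with no overlap (log2 difference 0.50, SE 0.10, limma *P*=0.000371, exact permutation *P*=0.00216). A second probe set for *Cryab*, with lower signal, differed by 0.27 and did not pass. *Hsph1*, a large chaperone of the HSP110 family, was 63.8 to 147 (median 102) against 64.2 to 83.3 (median 70.8), and missed the criteria in 10 of 12 fits without a mouse (*P* up to 0.0199, without formerly obese mouse 5) and in the fit of all 30 livers (limma *P* of 0.0176). Formerly obese mouse 1 was just below all lean mice and mouse 3 highest. *Stip1*, a co-chaperone between HSP70 and HSP90 outside the list and named after its values were seen, was 175 to 259 (median 222) against 122 to 174 (median 149.9), without overlap (log2 difference 0.51, SE 0.11, limma *P*=0.000662, exact permutation *P*=0.00216). Heat-inducible *Hspa1b* overlapped, at 60.3 to 221 against 40.3 to 129. In the list of the unfolded protein response none of 29 genes passed (median 0.13).

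Cell cycle genes had low signals and a median log2 difference of 0.15, with 27 of 33 past the average higher (against 55.1% of all genes past it). Of 36 measured, 2 passed as higher, against 0.478% of all genes. *Cdk1*, the kinase of mitosis, was 10.9 to 19.7 (median 13.74) in formerly obese and 8.34 to 11.5 (median 9.78) in lean livers, with formerly obese mouse 6 and lean mouse 6 in the overlap (log2 difference 0.54, SE 0.13, limma *P*=0.000916, exact permutation *P*=0.00433). *Rrm2*, a subunit of the enzyme that makes deoxynucleotides, was 57 to 95.5 (median 79.1) against 35.2 to 70.6 (median 49.5) (log2 difference 0.61, SE 0.17, limma *P*=0.0028, exact permutation *P*=0.0108), while its second probe set differed by 0.21 (SE 0.19) and did not pass. In the fit of all 30 livers neither passed (limma *P* of 0.114 and 0.116). The proliferation markers *Mki67* (14.1 against 11.6 in the median mouse) and *Top2a* (7.55 against 7.46) did not pass. Outside the list, and named after their values were seen, the chromatin ATPase *Atad2* was 20.2 to 30.2 (median 22.1) against 15.3 to 18 (median 16.8), the histone methyltransferase *Ezh2* 35.5 to 40.7 (median 37.9) against 27 to 35.1 (median 30.1), and *Lin9*, of the complex that switches on cell cycle genes, 17 to 23.2 (median 19.98) against 13.4 to 16.9 (median 15.6). None of the 3 overlapped between groups, but in the fit of all 30 livers their limma *P* was 0.0569, 0.0682 and 0.0228.

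Glucocorticoid-induced genes had a median log2 difference of 0.18 over 20 genes, 17 with a higher mean (against 55.1% of all genes past the average). Of the 20, 1 passed as higher, against 0.478% of all genes. *Zbtb16*, a zinc finger factor that glucocorticoids induce, was 46.9 to 84.2 (median 62.4) in formerly obese and 29.7 to 43.8 (median 39.4) in lean livers. There was no overlap (log2 difference 0.75, SE 0.14, limma *P*=0.000171, exact permutation *P*=0.00216), although it did not pass in the fit of all 30 livers (limma *P* of 0.0142). *Tsc22d3*, a mediator of the anti-inflammatory action of glucocorticoids, was 22.9 to 35.1 (median 25.8) against 16.8 to 25.2 (median 20.8) and did not pass (limma *P*=0.0145, exact permutation *P*=0.0238), nor did *Fkbp5*, at 35.2 to 59.9 against 25.9 to 46.9. Of 20 clock genes, with a median of 0.04, *Bhlhe41* passed (0.257% of all genes did as lower). This repressor was 16.9 to 23.9 (median 19.3) in formerly obese and 22 to 32.7 (median 26) in lean livers, with 1 mouse of each group in the overlap (log2 difference -0.44, SE 0.11, limma *P*=0.00159, exact permutation *P*=0.00433). Its relative *Bhlhe40* was at 403 to 633 (median 503) against 281 to 479 (median 358), and did not pass (limma *P*=0.0195, exact permutation *P*=0.0433). *Per1*, the clock gene that glucocorticoids induce, was 102 to 179.8 against 114 to 134.

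Few genes that passed as lower were members of a list, and no list held more than 2 of them. The pancreas list, given above, was lower without a gene past the criteria. *Acpp*, an acid phosphatase, was 23.4 to 48.4 (median 31) in formerly obese and 43.4 to 79.9 (median 52.1) in lean livers, where only formerly obese mouse 3 lay within the lean range (log2 difference -0.75, SE 0.20, limma *P*=0.00203, exact permutation *P*=0.0108). *Wif1*, a secreted inhibitor of Wnt signals, was 7.45 to 10.7 (median 9.11) against 10.8 to 15.1 (median 12.9), with the groups just apart (log2 difference -0.48, SE 0.11, limma *P*=0.000757, exact permutation *P*=0.00216). *Ezhip*, an inhibitor of Polycomb repression, was 6.81 to 8.59 (median 7.72) against 8.5 to 13 (median 10.7) (log2 difference -0.46, limma *P*=0.00062, exact permutation *P*=0.00649), and the peptide hormone *Ucn3* was 5.48 to 8.4 (median 6.84) against 7.54 to 11.3 (median 9.73) (log2 difference -0.45, limma *P*=0.00359, exact permutation *P*=0.0108). The signals of *Wif1*, *Ezhip* and *Ucn3* lie near 8. *Flrt1*, *Olfr1034*, *Tm4sf1*, *Olfr676*, *Csl*, *Zfp316* and *Nup62cl* complete the 12 lower genes with the largest ratios, at ratios of 0.681 to 0.752. Of these only *Zfp316* passed without any 1 mouse, and *Olfr1034* and *Tm4sf1* did not pass in the fit of all 30 livers (limma *P* of 0.0157 and 0.0213).

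Among lower genes with signals well above 8, all named after their values were seen, *Gm4952* was 176 to 280.1 (median 224) in formerly obese and 294 to 354 (median 318) in lean livers, without overlap (log2 difference -0.54, SE 0.12, limma *P*=0.000751, exact permutation *P*=0.00216). In the fit of all 30 livers *Gm4952* did not pass (limma *P* of 0.0120). *Slc35b2*, which carries the sulfate donor PAPS into the Golgi, was 49.2 to 56.7 (median 50.1) against 59.7 to 73.9 (median 63.4), and *Phldb2*, a membrane protein of the cell cortex, was 91 to 142 (median 118) against 142 to 166 (median 149). Both groups stood apart in each. *Ethe1*, which oxidises sulfide in mitochondria, was 226 to 274 (median 249) against 269.7 to 346 (median 319.8) (log2 difference -0.32, limma *P*=0.00349, exact permutation *P*=0.00649).

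Small RNA genes were also among the lower ones. *Scarna10*, a guide RNA of Cajal bodies, was 7.93 to 10.8 (median 8.85) in formerly obese and 11.2 to 24.4 (median 15) in lean livers, without overlap, and had the lowest ratio of all genes that passed, 0.585 (log2 difference -0.74, SE 0.17, limma *P*=0.00062, exact permutation *P*=0.00216). *Scarna2* was 17.1 to 30 (median 23.1) against 28.7 to 47.2 (median 33.8), whereas *Snord61* was higher. Of 34 measured small nucleolar and Cajal body RNAs, 2 thus passed as lower and 1 as higher (0.257% and 0.478% of all genes did). The probe sets of 2 miRNA genes, named after their values were seen, passed as lower. *Mir188* was 7.99 to 11.8 (median 10.3) against 12.8 to 22.3 (median 16.4), without overlap (log2 difference -0.69, SE 0.14, limma *P*=0.000329, exact permutation *P*=0.00216). *Mir339* was 14.3 to 18.5 (median 16.9) against 17.5 to 39.8 (median 24.8), and missed the criteria in 9 of 12 fits without a mouse (*P* up to 0.0198, without formerly obese mouse 4). Total RNA was amplified for these arrays, so the signal may come from the precursor and need not follow the mature miRNAs. Their mature sequences (RefSeq, GRCm38.p6) are given with the seed, bases 2 to 8, in capitals, and the 4 seeds differ.
miR-188-5p, chrX:7248031-7248051, minus strand: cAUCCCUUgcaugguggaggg
miR-188-3p, chrX:7247992-7248012, minus strand: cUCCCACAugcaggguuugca
miR-339-5p, chr5:139369708-139369730, minus strand: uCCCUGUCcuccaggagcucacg
miR-339-3p, chr5:139369673-139369695, minus strand: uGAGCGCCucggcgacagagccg

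**Figure D5:**
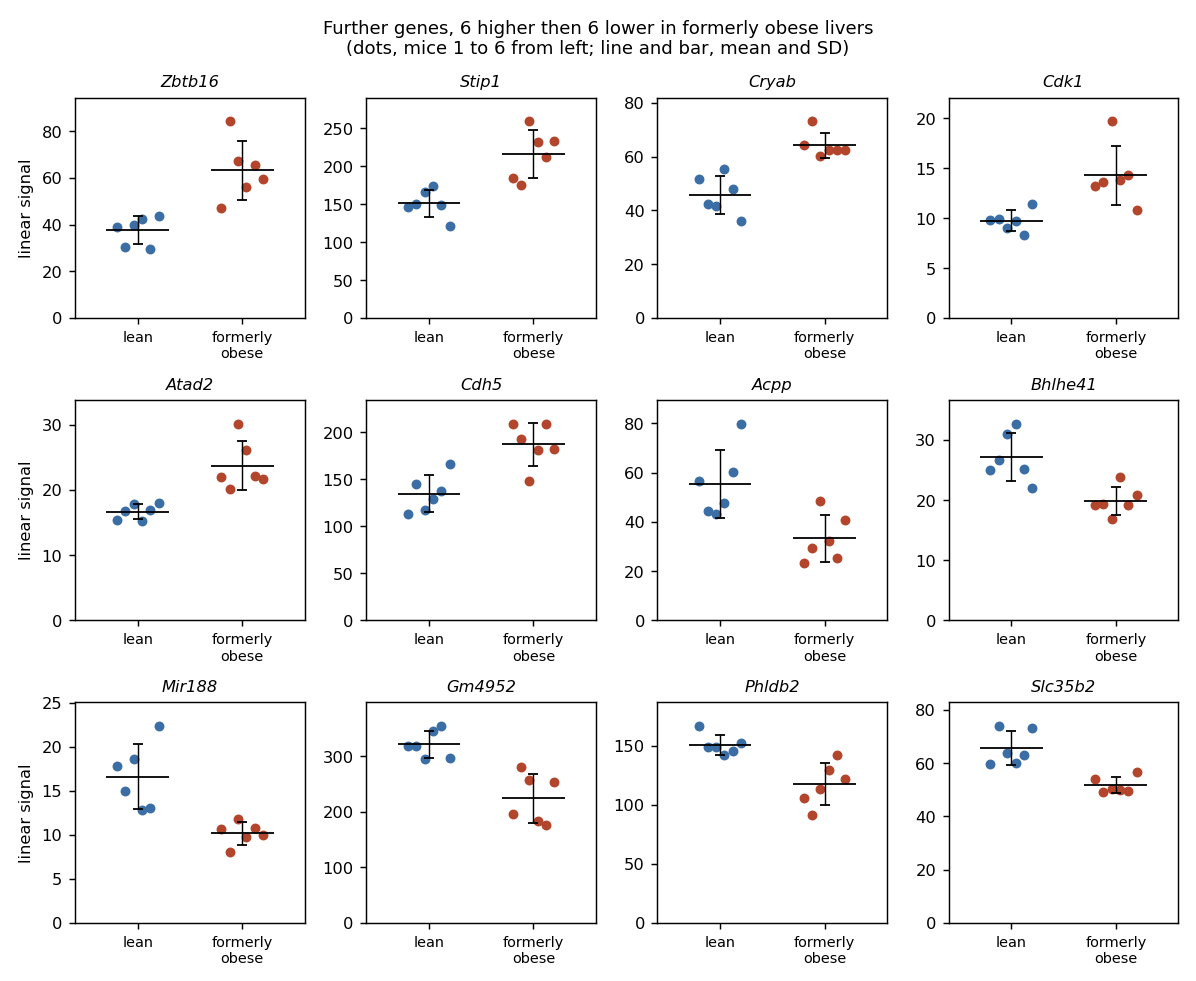
Linear signal (vertical, from 0) of 6 genes that were higher and 6 that were lower in formerly obese livers, with a dot for each mouse in the order of its number and the mean and SD of each group. *Zbtb16*, *Stip1*, *Cryab*, *Atad2*, *Mir188*, *Gm4952*, *Phldb2* and *Slc35b2* show no overlap between the groups, and in each of the other 4 a single formerly obese mouse lies within the lean range.

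Among the remaining higher genes with the largest ratios, *Ctla2b*, related to cysteine protease inhibitors, was 37.1 to 65.2 (median 49.5) in formerly obese and 19.1 to 39.6 (median 29.7) in lean livers (log2 difference 0.80, SE 0.19, limma *P*=0.00106, exact permutation *P*=0.00433). *Eda*, the TNF family ligand ectodysplasin, was 7.49 to 11.9 (median 9.67) against 5.45 to 6.58 (median 6.18), with no overlap (log2 difference 0.59, SE 0.11, limma *P*=0.000138, exact permutation *P*=0.00216). Its signals lie near or below 8, and only the formerly obese average exceeded 8. *Csrp1*, a LIM protein of the actin cytoskeleton, did not overlap either, at 33 to 56.6 (median 44.8) against 21.6 to 31.2 (median 29.4). *Tmem47* was 32.9 to 57.4 (median 49.2) against 25.8 to 36.3 (median 31.6), while its second probe set, with signals near 8, differed by 0.04 (SE 0.13) and did not pass. *Cyba*, a subunit of the phagocyte oxidase, was 17.9 to 33.8 (median 24.7) against 12 to 23.8 (median 16.9), and *Cib3*, a calcium-binding protein, 81.6 to 183 (median 146) against 46.9 to 114 (median 77.8). Each of *Cyba* and *Cib3* missed the criteria in 8 of 12 fits without a mouse (*P* up to 0.0229 without formerly obese mouse 5 and 0.0241 without formerly obese mouse 6), and neither passed in the fit of all 30 livers (limma *P* of 0.0152 and 0.1).

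The same history was measured in the 12 other livers, from mice on HFD for 48 h. There 78 of the 106 higher genes and 35 of the 57 lower genes had a difference of the same sign. Over all genes past the average, 49.8% of those above 0 on control diet were above 0 after HFD, and 57.2% of those below 0 were below 0. The median log2 difference of the 106 was 0.43 on control diet and 0.12 after HFD, and that of the 57 was -0.39 and -0.05. Only 4 genes passed the criteria in both, *Ifi205* and *Cd68* as higher and *Nup62cl* and *Albfm1* as lower. After HFD 0.419% of all genes passed as higher and 0.469% as lower (197 genes or 0.888% in all). On control diet *Cd68* and *Albfm1* did not pass in the fit of all 30 livers (limma *P* of 0.0150 and 0.0433), nor *Nup62cl* with the replicate block (limma *P* of 0.0233). With a mouse left out there, *Cd68* and *Nup62cl* each missed the criteria in 8 of 12 fits and *Albfm1* in 6, while *Ifi205* passed every time. No gene had a difference between diets in the effect of history at an FDR of 10% in limma, where 1035 genes had an unadjusted *P* under 0.05 and the smallest adjusted *P* was 0.88.

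Macrophage genes were higher in these mice too. All 24 members of the general list had a higher mean in refed formerly obese livers (6794 of the 14564 genes past the average did). The median log2 difference was 0.41, and 9 passed as higher, when 0.419% of all genes did. The 9 were *Cd68*, *Cybb*, *C1qa*, *C1qc*, *Aif1*, *Ctss*, *Mpeg1*, *Spi1* and *Tyrobp*, so that *Cd68* alone passed on both diets. On the log2 scale *Cd68* differed by 0.54 (SE 0.17) on control diet and by 0.81 (SE 0.17) after HFD, and *Cybb*, the catalytic subunit of the phagocyte oxidase, by 0.52 (SE 0.18) and 0.85 (SE 0.21). The 13 measured MHC class II genes had a median of 0.41 after HFD, with 5 past the criteria as higher (0.419% of all genes were). On control diet the median was 0.14, and 1 passed. Kupffer genes had a median of 0.14 after HFD, with no gene past the criteria. *Timd4* differed by 0.08 there (SE 0.33) and *Marco* by -0.33 (SE 0.28). For interferon genes the median was 0.10, with *Ifi205* differing by 0.73 (SE 0.24) and *Oas1g* by 0.10 (SE 0.58). Stellate cell and fibroblast genes had a median of 0.29 after HFD, with 22 of 23 above 0, and collagen chains 0.08. Genes of monocyte-derived and lipid-associated macrophages had a median of 0.28. No gene of these lists passed after HFD. *Zbtb16* differed by 0.41 (SE 0.35), *Stip1* by 0.07 (SE 0.13) and *Mir188* by -0.10 (SE 0.25) after HFD.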

How the data were processed

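Total liver RNA was amplified and hybridised to Affymetrix Mouse Gene 2.0 ST arrays, 1 mouse per array. The deposited values are log2 signals for 41345 probe sets that the authors made with RMA in Expression Console (1.4.1.46). RMA subtracts background, equalises the distribution of all arrays and summarises probes, so a shift common to most genes is lost. The 12 arrays correlated with *r* of 0.969 to 0.983. No source used here names the genome build.

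Of the probe sets, 23521 name a single gene, 1820 several and 16004 none, and only the first were described. Where several named the same gene, the one with the highest average signal was taken. Groups were compared with limma (3.58.1, R 4.3.3) over all probe sets, and single genes also by a two-sided exact permutation test. The 45 gene lists name 1101 genes, and 985 were measured. They share members. The members and lists were chosen with earlier results of these data known. Genes named are the 12 with the largest ratios in each direction (locus and small RNA symbols aside), list members that passed, members with the smallest *P* of lists with few, and genes of the paper's qPCR. Any other gene named was chosen after its values were seen. *Il2rg* has no probe set of its own name and was not analysed here. Tables and figures were made in Python 3.11.15 with pandas 2.3.3, NumPy 2.4.6 and Matplotlib 3.10.9.

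Alternatives were a fit of all 30 livers, an intensity trend with a robust prior, array weights, median-centred arrays, other minimum averages and ratios, FDR, the mean of a gene's probe sets, a replicate block, and each mouse left out.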

Additional observations from a re-analysis of the deposited data

Results flagged for a closer look

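In 10 of 292 groups of 6 livers examined, 1 liver lay far from the other 5, where chance alone gives about 1 in 20. *Csrp1* was 21.6 in lean mouse 3 and 28.1 to 31.2 in the other lean mice. *Cryab* was 73.1 in formerly obese mouse 2 and at most 64.4 in the rest of its group. *Snord61* was 12.8 in formerly obese mouse 2 and 8.28 in lean mouse 5, against at most 8.44 and 5.86 in the others of their groups. *Cps1* was 2960 in formerly obese mouse 2 and 3600 to 3840 in the others, and *Slc4a1* 11.2 in formerly obese mouse 3 and 7.71 to 8.76 in the others. *C1qc* was 17.7 in formerly obese mouse 3, the mouse with the lowest macrophage list of its group, and 25.7 to 31 in the others. *Srebf2* was 31.6 in lean mouse 3 and 51.3 to 60.1 in the other lean mice. *Acaa2* was 2100 in lean mouse 3 and 1880 to 1950 in the others, and *Srebf1* was 307 in formerly obese mouse 2 and 173 to 207 in the others.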

How the results depend on the processing

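The 163 genes became 123 to 173 when a mouse was left out, of which 93 to 110 were among the 163, with 78 to 122 higher and 41 to 69 lower. Gene list members past the criteria, 32 of 985, became 23 to 38. An FDR of 10% left 0 genes higher, 0 lower and 0 list members. A minimum ratio of 1.3 left 100 genes, 70 higher and 30 lower. A minimum average of 16 left 33 lower genes, and no minimum 87. Among the genes that no longer passed at 16 were *Eda*, *Il2rb*, *Plaur*, *Cdk1*, *Snord61*, *Scarna10*, *Wif1*, *Ezhip* and *Ucn3*. The fit of all 30 livers left 116 genes, 90 of them among the 163, and 20 list members. The other alternatives kept these counts within 1.5 times. No named gene that passed changed direction under any of them. Formerly obese and lean mice share replicate numbers, but same-numbered livers did not deviate together (*r* of -0.0415 to 0.121), and only 1 of the 6 pairs correlated best with its own number, so the numbers were not treated as pairs. With the replicate block 145 genes passed, 99 higher and 46 lower, and 96 of them were among the 163. The number of mice limits the precision, and genes with signals near 8 lie close to the background.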
